A study of Mus musculus with 20 samples.

Results

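The Serpin genes encode the serine protease inhibitors (serpins) and their non-inhibitory relatives, and they were described here across 5 groups of mouse samples. The members were all genes whose platform symbol starts with Serpin, which gave 60 probes for 49 genes of the 16593 genes that carried a symbol on the Illumina bead array. Where a gene had several probes, the probe with the highest mean over all arrays was used, which applied to 10 of the 49 genes. Beyond that the rule used no measured value, though it was set with earlier results of these data known. An Illumina bead array reports the brightness of labelled RNA bound to each probe, so values of the same probe can be compared between samples but levels of different probes cannot. All levels below are log2 intensity after background correction and quantile normalization.

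The series held 20 arrays in 5 groups of 4. E14-mES and C57-mES carried titles of mouse embryonic stem (ES) lines, which grow from the early embryo and can form every tissue. GFPoct4 was called embryonic stem cell only by its source and cell type fields. The group sFB-protein-iPS was labelled as induced pluripotent stem (iPS) cells, which are made from body cells and resemble ES cells. The group titled FVB-sFB was called embryonic stem cell by the same fields, while the series title speaks of skin fibroblasts, so the labels disagree, and this group is named by its title. The titles carry FVB and C57, which are names of mouse strains, the word GFPoct4, and the word protein for the iPS cells. Between the groups a difference of strain cannot be told apart from one of line or cell type. Beyond these words the labels give no agent, dose, time, passage, sex, feeder layer or clone for any group. They do not say whether the 4 arrays of a group were separate cultures. The p-values therefore measure only the spread between arrays. E14-mES, GFPoct4 and C57-mES are called the ES lines below.

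A serpin inhibits a protease by acting as bait. The protease cuts a loop that stands out from the serpin, the cut loop swings into the body of the serpin, and the protease is dragged along and trapped in a covalent complex, so that each molecule works a single time. Clade A serpins are mostly secreted and many circulate in blood, clade B serpins lack a classical signal sequence and mostly act inside cells, and some members of the other clades inhibit nothing at all. In connective tissue serpins are known for restraining plasminogen activation and complement, and Serpinh1 for folding collagen.

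The arrays were checked before the members were compared. Of 10 pluripotency markers all 10 lay above background on every array of the 4 ES and iPS groups, against 2 in FVB-sFB. Of 12 fibroblast markers 11 lay above background on every FVB-sFB array, so that group matched its title and not its cell type field. Median deposited intensity ranged from 94.4 to 179 over the arrays, and 48.2% to 53.5% of an array's probes were brighter than background. Background was set on each array at the 95th percentile of 1305 odorant and pheromone receptor probes, and it lay between 6.68 and 6.83. The FVB-sFB arrays stood apart as pairs. Deviations from the group mean correlated at 0.525 between arrays 1 and 2 and at 0.390 between arrays 3 and 4, with at most -0.708 across the pairs. The labels do not say what the pairs are. For Serpin genes, results that rest on FVB-sFB are given below with and without each pair where it matters. The other genes, taken from lists and markers, were not examined without either pair, so their folds against FVB-sFB lack this check.

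Most Serpin genes were dim in these cells. Of the 49 members 24 were above background on no array, which is 49.0% of them, against 28.0% of all genes. Another 16 were above background on some arrays but on no group's full set of 4. The remaining 9 were above background on all 4 arrays of at least 1 group, which is 18.4% of the members against 60.2% of all genes. These were Serpina3n, Serpinb1a, Serpinb2, Serpinb6a, Serpinb6b, Serpinb6c, Serpinf1, Serping1 and Serpinh1. Of these, 4 were above background on all 20 arrays, namely Serpinb6a, Serpinb6c, Serping1 and Serpinh1. Clade A, with 15 of its 16 measured members on chromosome 12, gave 1 member above background in a group. Clade B, with 11 members on chromosome 1 and 14 on chromosome 13, gave 5 of 25, and clades C to I gave 3 of 8.

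**Figure D1:**
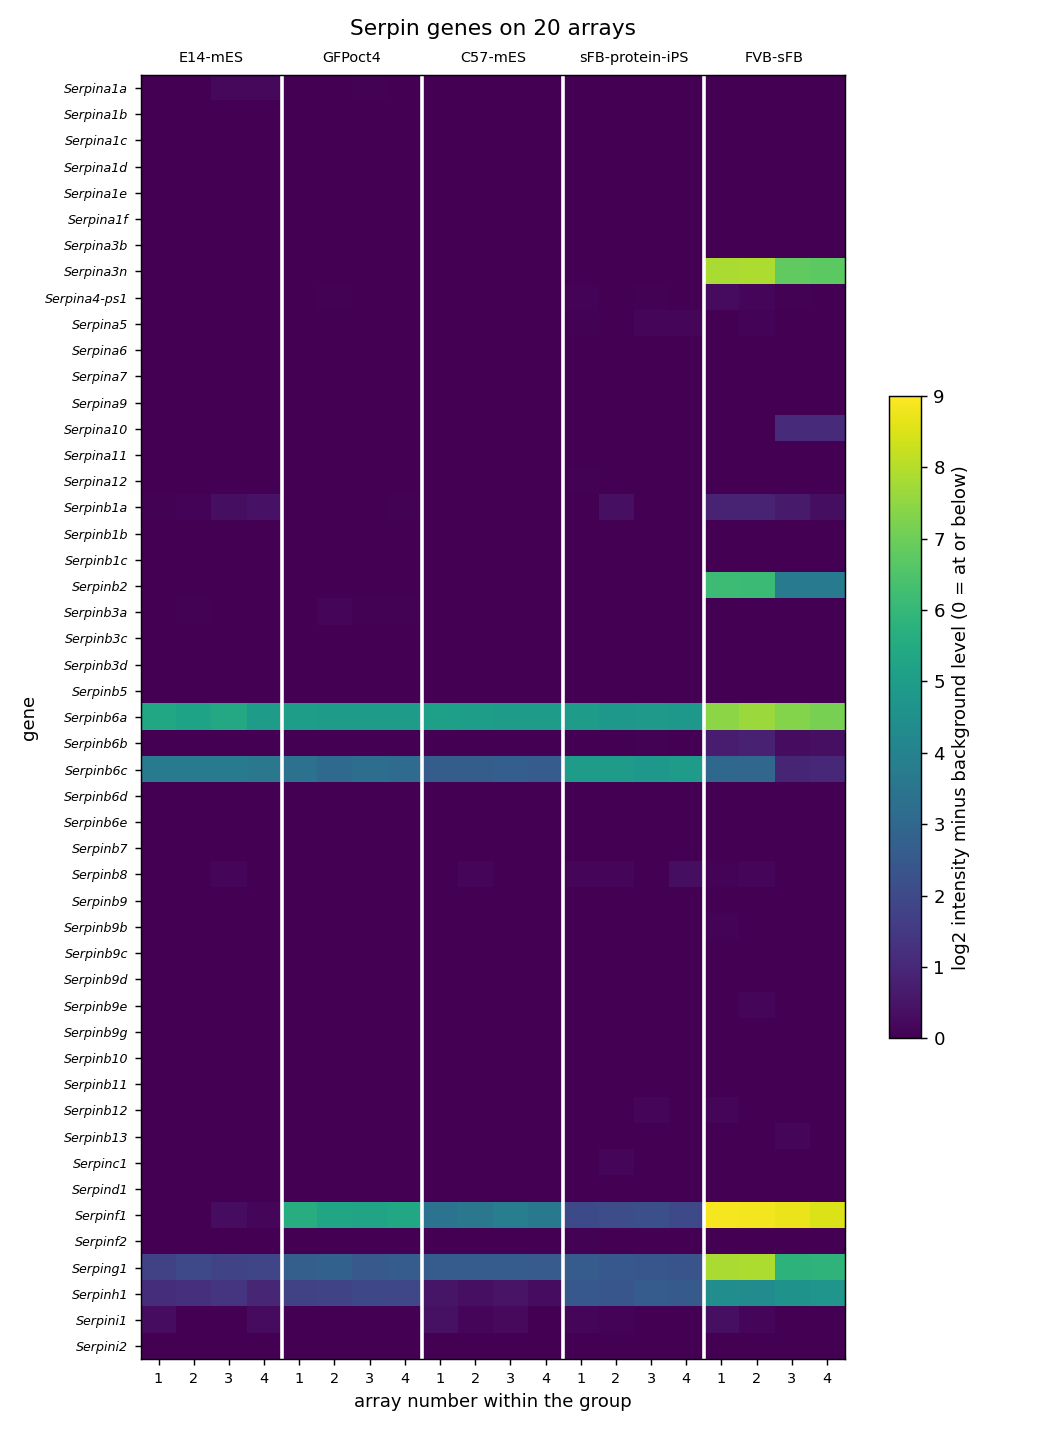
The level of each of the 49 Serpin genes (rows) on each of the 20 arrays (columns, array number within the group), as log2 intensity minus the background level of that array, with values at or below background drawn as 0. Rows for Serpinb6a, Serpinb6c, Serping1 and Serpinh1 are above background throughout, Serpina3n and Serpinb2 in FVB-sFB alone, and 24 rows stay at 0 on every array.

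The promoters of 6 of the 7 members that changed are shown because these members differ in how widely they were expressed. Each sequence runs 5′ to 3′ over the 300 bases from 250 before to 50 after the annotated start in RefSeq on GRCm38.p6, and capitals mark CG pairs. In the table of promoters 42 of the 49 members had a window, and Serping1 is named only. The window with the start farthest upstream was taken where a gene had several.

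The windows of Serpina3n (chr12:104406458-104406757, plus strand), Serpinb2 (chr1:107511173-107511472, plus strand) and Serpinf1 (chr11:75422574-75422873, minus strand) come first.
Serpina3n: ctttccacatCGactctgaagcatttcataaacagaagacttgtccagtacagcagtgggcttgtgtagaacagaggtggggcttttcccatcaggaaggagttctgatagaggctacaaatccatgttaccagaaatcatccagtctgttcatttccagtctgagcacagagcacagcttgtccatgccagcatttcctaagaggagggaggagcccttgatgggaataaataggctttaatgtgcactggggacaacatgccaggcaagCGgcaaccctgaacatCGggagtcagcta
Serpinb2: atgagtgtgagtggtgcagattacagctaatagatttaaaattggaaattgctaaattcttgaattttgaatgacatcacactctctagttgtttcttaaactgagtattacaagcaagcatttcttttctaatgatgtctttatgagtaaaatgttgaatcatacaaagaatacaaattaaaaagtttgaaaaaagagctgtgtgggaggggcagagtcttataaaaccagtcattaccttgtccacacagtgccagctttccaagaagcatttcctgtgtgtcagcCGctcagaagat
Serpinf1: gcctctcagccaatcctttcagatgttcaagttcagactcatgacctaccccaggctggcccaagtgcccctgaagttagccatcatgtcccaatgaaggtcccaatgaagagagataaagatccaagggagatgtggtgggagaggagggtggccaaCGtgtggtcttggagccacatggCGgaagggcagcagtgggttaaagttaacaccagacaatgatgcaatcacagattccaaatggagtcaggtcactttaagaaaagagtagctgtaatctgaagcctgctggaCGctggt

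The windows of Serpinh1 (chr7:99353190-99353489, minus strand), Serpinb6a (chr13:34002745-34003044, minus strand) and Serpinb6c (chr13:33905142-33905441, minus strand) follow.
Serpinh1: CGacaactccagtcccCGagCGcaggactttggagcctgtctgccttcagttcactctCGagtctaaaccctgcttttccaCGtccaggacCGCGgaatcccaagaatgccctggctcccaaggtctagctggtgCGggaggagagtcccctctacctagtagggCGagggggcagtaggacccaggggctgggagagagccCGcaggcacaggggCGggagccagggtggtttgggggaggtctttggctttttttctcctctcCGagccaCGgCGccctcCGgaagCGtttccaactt
Serpinb6a: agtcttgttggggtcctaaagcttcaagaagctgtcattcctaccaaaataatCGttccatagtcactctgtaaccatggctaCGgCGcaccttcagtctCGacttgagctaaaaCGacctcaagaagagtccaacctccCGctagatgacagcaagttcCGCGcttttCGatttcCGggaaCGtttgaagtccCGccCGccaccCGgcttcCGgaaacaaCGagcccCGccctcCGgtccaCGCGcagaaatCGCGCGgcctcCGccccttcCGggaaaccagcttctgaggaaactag
Serpinb6c: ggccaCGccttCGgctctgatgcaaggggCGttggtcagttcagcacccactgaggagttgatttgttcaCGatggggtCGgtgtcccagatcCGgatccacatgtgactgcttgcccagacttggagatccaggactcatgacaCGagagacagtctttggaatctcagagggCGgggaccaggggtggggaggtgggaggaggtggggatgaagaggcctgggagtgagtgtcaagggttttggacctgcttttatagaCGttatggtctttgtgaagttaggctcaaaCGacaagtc

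The 3 windows of the first set were poor in CG pairs. Serpinb2 had 1 CG pair, and 14.1% of all 32851 windows had as few or fewer. Serpina3n and Serpinf1 had 3 each, a count that 31.4% of all windows did not exceed. Serpinb6a had 25 CG pairs (18.4% of all windows had as many or more), Serpinh1 had 16 (33.0%) and Serpinb6c had 10 (43.5%). The median was 7 over all windows and 3 over the 50 windows of Serpin genes. Serpinb6a, Serpinh1 and Serpinb6c were the members of these 6 that were above background on all 20 arrays. Serpinf1, with 3 CG pairs, was above background on 19 of them, and a link between CG pairs and expression was not tested.

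The windows were searched on both strands for TATAAA (held by 13.6% of all windows), GGGCGG (35.7%), CCAAT (37.4%) and TGANTCA (7.81%). In Serpinb2, TATAAA began 29 bases before the start, TGAATCA 94 bases before it, and the reverse complement of CCAAT 210 bases before it. Serpinf1 held CCAAT at 241, 160 and 148 bases before its start. GGGCGG or its reverse complement was found in Serpinb6a, Serpinb6c and Serpinh1, 37 bases before the start in Serpinh1. Serpinb6c also held TATAAA on the reverse strand just after its start. No match was found in Serpina3n. No matches overlapped. A match is a run of letters, and nothing was measured at it here.

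The first question was which Serpin genes differed between sFB-protein-iPS and FVB-sFB. Of the 49 members 7 were called, that is, they had an adjusted p (limma, Benjamini-Hochberg over all genes) under 0.05 and a log2 fold change of at least 1 in size. That is 14.3% of the members, against 22.9% of all genes. Lower in sFB-protein-iPS were 6 (11.4% of all genes were) and higher was 1 (11.6% of all genes were). The median log2 difference was -0.02 over the members and 0.03 over all genes. When the ES lines' mean was compared with FVB-sFB, the same 7 members were called, 6 lower and 1 higher, where 22.6% of all genes were called, 10.9% lower and 11.6% higher. The median was -0.12 over the members and 0.01 over all genes. Both comparisons share the FVB-sFB arrays.

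Among the secreted inhibitors, Serpina3n separated the groups most widely. It is a clade A serpin of the family that corresponds to human antichymotrypsin, is made in the acute phase of inflammation, and lies between Serpina3m and Gsc in the clade A cluster. The FVB-sFB arrays read 14.58, 14.63, 13.57 and 13.50. The other 16 arrays read 5.69 to 6.53 and none was above background. The groups therefore did not overlap, and arrays 1 and 2 of FVB-sFB lay 1.07 above arrays 3 and 4. Serpina3n was at least 152-fold lower in sFB-protein-iPS (-8.10 ± 0.20 on the log2 scale, SE of the fit, 4 arrays in each group, limma adjusted p = 1.08e-21) and at least 162-fold lower in the ES lines (-7.92 ± 0.16, adjusted p = 1.62e-23). A fold is a lower bound wherever the dim side was not above background on every array, and it was then computed against the background level. Without FVB-sFB arrays 1 and 2 the fitted difference for sFB-protein-iPS was -7.53, and without arrays 3 and 4 it was -8.62. For the ES lines these values were -7.35 and -8.45. Whether the probe of Serpina3n also binds RNA of a paralog was not tested.

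Serpinb2, or plasminogen activator inhibitor 2, blocks urokinase (Plau) and lies between Serpinb7 and Serpinb10 on chromosome 1. It read 12.89, 12.88, 10.44 and 10.50 on the FVB-sFB arrays and 5.90 to 6.48 on the others, none of which was above background. Here too the groups did not overlap, but the pairs of FVB-sFB arrays differed by 2.42. Serpinb2 was at least 28.9-fold lower in sFB-protein-iPS (-5.67 ± 0.36, adjusted p = 2.99e-13) and at least 30.8-fold lower in the ES lines (-5.48 ± 0.29, adjusted p = 6.95e-15). The difference for sFB-protein-iPS was -4.42 without FVB-sFB arrays 1 and 2 and -6.86 without arrays 3 and 4. For the ES lines it was -4.23 and -6.66.

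Serping1 encodes the C1 inhibitor, which restrains the complement proteases C1r and C1s and plasma kallikrein. It read 14.57, 14.65, 12.59 and 12.63 in FVB-sFB and 9.43, 9.27, 9.25 and 9.17 in sFB-protein-iPS. In E14-mES it read 8.46, 8.75, 8.58 and 8.56. Readings were 9.44, 9.57, 9.23 and 9.38 in GFPoct4, and 9.36, 9.31, 9.32 and 9.35 in C57-mES. All 20 arrays were above background, FVB-sFB lay above every other array, and after normalization E14-mES lay below the other 3 ES and iPS groups. Serping1 was 20.1-fold lower in sFB-protein-iPS (-4.33 ± 0.30, adjusted p = 1.77e-12) and 22.6-fold lower in the ES lines (-4.50 ± 0.24, adjusted p = 9.25e-15). The pairs of FVB-sFB arrays differed by 2.00, so the first of these folds was 10.1 without arrays 1 and 2 and 40.7 without arrays 3 and 4. For the ES lines the folds were 11.3 and 45.8.

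Serpinf1 encodes pigment epithelium-derived factor, a secreted serpin that inhibits no known protease and is known for blocking the growth of blood vessels. It lies next to Serpinf2 on chromosome 11. It read 15.61, 15.58, 15.52 and 15.32 in FVB-sFB, 12.33, 12.06, 11.97 and 12.14 in GFPoct4, and 10.14, 10.26, 10.57 and 10.43 in C57-mES. In sFB-protein-iPS it read 8.86, 8.95, 9.03 and 8.80, and in E14-mES 6.77, 6.59, 7.03 and 6.79, of which 3 were above background. No group overlapped another, which makes a ladder of 5 levels with FVB-sFB at the top and E14-mES at the background. Serpinf1 was 96.9-fold lower in sFB-protein-iPS than in FVB-sFB (-6.60 ± 0.11, adjusted p = 3.32e-25) and at least 53.5-fold lower in the mean of the ES lines (-5.75 ± 0.09, adjusted p = 5.6e-26). The deposited intensity of this probe in FVB-sFB was 38274 to 48280, where the brightest probe of those arrays read 48441 to 51402, so its level there lay close to the top of the scale and the folds against FVB-sFB may be too small.

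**Figure D2:**
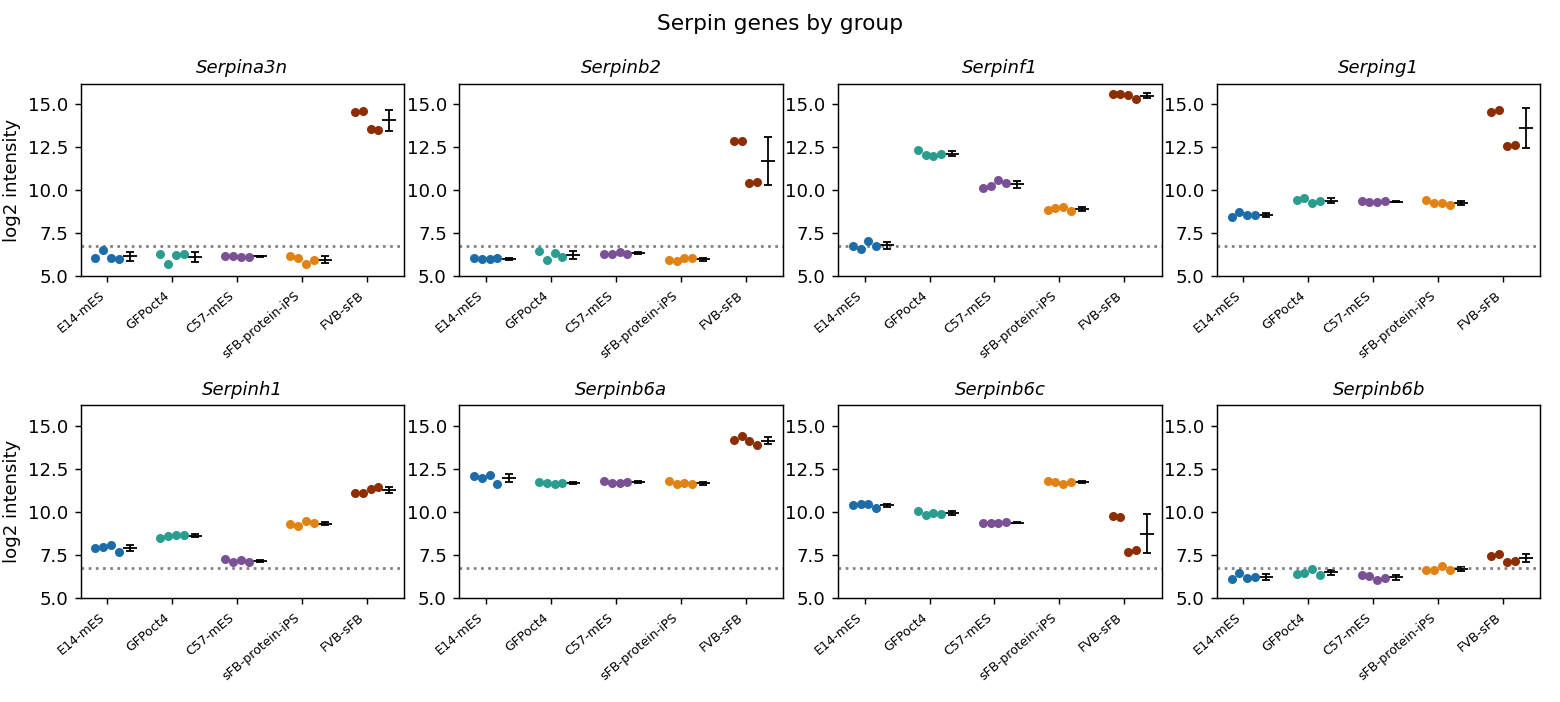
Log2 intensity of 8 Serpin genes by group. Each point is an array, the bar and whiskers are the mean and SD of 4 arrays, and the dotted line is the mean background level. FVB-sFB lies highest in each panel except that of Serpinb6c, where sFB-protein-iPS does, and the FVB-sFB arrays fall in pairs for Serpina3n, Serpinb2, Serping1 and Serpinb6c.

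Serpinh1, also called Hsp47, is a non-inhibitory serpin of the endoplasmic reticulum that binds newly made collagen and helps it fold. It read 11.13, 11.10, 11.35 and 11.48 in FVB-sFB and 9.29, 9.21, 9.45 and 9.37 in sFB-protein-iPS. The readings were 8.50, 8.60, 8.69 and 8.67 in GFPoct4, and 7.92, 7.95, 8.11 and 7.65 in E14-mES. In C57-mES it read 7.25, 7.08, 7.19 and 7.08. Every array was above background and no 2 groups overlapped after normalization, with sFB-protein-iPS in the place between FVB-sFB and the ES lines. Serpinh1 was 3.82-fold lower in sFB-protein-iPS than in FVB-sFB (-1.93 ± 0.10, adjusted p = 6.8e-15) and 10.4-fold lower in the ES lines (-3.37 ± 0.08, adjusted p = 5.28e-22). The pairs of FVB-sFB arrays differed by only -0.30 here.

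The clade B genes Serpinb6a and Serpinb6c are neighbours on chromosome 13 and moved in opposite directions. Serpinb6a is an intracellular inhibitor that in the mouse acts on cathepsin G. It read 14.16, 14.40, 14.10 and 13.92 in FVB-sFB, and 11.80, 11.62, 11.68 and 11.62 in sFB-protein-iPS. In E14-mES it read 12.09, 11.97, 12.16 and 11.63, with 11.75, 11.70, 11.65 and 11.67 in GFPoct4 and 11.80, 11.71, 11.69 and 11.76 in C57-mES. FVB-sFB lay above all other arrays, while the 4 ES and iPS groups overlapped each other. Serpinb6a was 5.53-fold lower in sFB-protein-iPS (-2.47 ± 0.11, adjusted p = 8.02e-17) and 5.09-fold lower in the ES lines (-2.35 ± 0.09, adjusted p = 2.1e-18).

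Serpinb6c, a mouse paralog of Serpinb6a, was the member called in the upward direction. It read 11.81, 11.77, 11.63 and 11.77 in sFB-protein-iPS and 10.41, 10.44, 10.47 and 10.23 in E14-mES. The GFPoct4 arrays read 10.09, 9.85, 9.97 and 9.89, the C57-mES arrays 9.37, 9.37, 9.39 and 9.39, and the FVB-sFB arrays 9.78, 9.71, 7.70 and 7.82. After normalization all sFB-protein-iPS arrays lay above all others. FVB-sFB arrays 1 and 2 lay within the range of the ES lines, while arrays 3 and 4 lay below it. Serpinb6c was 7.95-fold higher in sFB-protein-iPS than in FVB-sFB (2.99 ± 0.30, adjusted p = 2.04e-09), 15.7-fold without FVB-sFB arrays 1 and 2 and 3.99-fold without arrays 3 and 4. It was 2.22-fold higher in the ES lines (1.15 ± 0.24, adjusted p = 0.00019), but this call rested on FVB-sFB arrays 3 and 4. Without them the difference was 0.16 (adjusted p = 0.16), and without arrays 1 and 2 it was 2.14. The table pairs each of these genes with 1 probe, and whether a probe also binds RNA of a paralog was not tested.

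The members just short of a call, chosen for mention after their values were seen, were dim. Serpinb6b, another paralog of the same cluster, read 7.43, 7.58, 7.08 and 7.14 in FVB-sFB, all above background. In the other groups its mean lay between 6.21 and 6.70. Its difference between the ES lines and FVB-sFB was -0.998 ± 0.09 (adjusted p = 4.37e-10), just short of the minimum. Without FVB-sFB arrays 3 and 4 it was called at -1.18, and without arrays 1 and 2 it was -0.78 and not called. Serpinb1a, an inhibitor of neutrophil elastase, read 7.60, 7.65, 7.42 and 7.11 in FVB-sFB and 6.81, 6.85, 7.06 and 7.13 in E14-mES, so these groups overlapped and both were above background. Its difference between the ES lines and FVB-sFB was -0.85. Without FVB-sFB arrays 3 and 4 it was called at -1.01, and without arrays 1 and 2 it was -0.65 and not called. Serpina10, which inhibits coagulation factor Xa with protein Z as cofactor, split within FVB-sFB. Arrays 1 and 2 read 6.17 and 6.13, below background, and arrays 3 and 4 read 7.86 and 7.89, above it. Its difference between sFB-protein-iPS and FVB-sFB was -0.93 ± 0.28 (adjusted p = 0.00572), -1.76 without arrays 1 and 2 and -0.07 without arrays 3 and 4.

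The other 39 members read 5.69 to 7.18 over all arrays. None was above background on more than 9 arrays, a count reached by Serpini1, and none ranged over more than 1.12 log2 units. Their fitted differences lay between -0.47 and 0.46 over the 9 comparisons. With no minimum fold change, 14 of the 49 members had an adjusted p under 0.05 for sFB-protein-iPS against FVB-sFB (49.2% of all genes did). The count was 19 for the ES lines against FVB-sFB (56.5%) and 10 for sFB-protein-iPS against the ES lines (38.1%). Against E14-mES, GFPoct4 and C57-mES alone sFB-protein-iPS gave 13 (39.1%), 8 (39.2%) and 6 (27.3%). The ES lines among themselves gave 6 for E14-mES against C57-mES (38%), 4 for GFPoct4 against C57-mES (40.4%) and 3 for E14-mES against GFPoct4 (19.7%). Among the dim ones was Serpina5, the protein C inhibitor, at 0.35 for sFB-protein-iPS against the ES lines (adjusted p = 0.000131), with 3 of 4 sFB-protein-iPS arrays above background. The other probe of Serpina5 was above background on no array and averaged 6.02 in sFB-protein-iPS, 6.03 in E14-mES, 5.93 in GFPoct4 and 6.02 in C57-mES. On the used probe sFB-protein-iPS averaged 6.87, where background on those arrays was 6.81 to 6.83. This close to background a fitted difference can understate a change. Serpins made mostly by the liver (Serpina1a to Serpina1e, Serpina6, Serpinc1, Serpind1 and Serpinf2) and the granzyme inhibitor Serpinb9 are among these 39.

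The next question was where sFB-protein-iPS differed from the ES lines. Against their mean 2 members were called, both higher, which is 4.08% of the members against 3.26% of all genes, with 1.47% of all genes higher. Serpinb6c was 3.57-fold higher (1.84 ± 0.24, adjusted p = 9.03e-07) and Serpinh1 2.71-fold higher (1.44 ± 0.08, adjusted p = 5.98e-13). After normalization the arrays of sFB-protein-iPS lay above all 12 ES arrays for both genes. The deposited intensities overlapped. Serpinh1 read 446 on GFPoct4 array 3 and 427 on sFB-protein-iPS array 2. Serpinb6c read 2481 on E14-mES array 4 and 2126 on sFB-protein-iPS array 3. In the authors' deposited log2 values, which were not normalized between arrays, the median of all genes lay at -0.28 in this comparison. There Serpinh1 stood at 0.79 and was not called, or 1.07 above that median, and Serpinf1 was called lower, so the split was 1 higher and 1 lower in place of 2 and 0, where 0.392% of all genes were called higher and 8.27% lower. With median centring it was 2 higher and 1 lower, where 0.729% of all genes were called higher and 4.07% lower. Serpinf1 lay -0.85 ± 0.09 from the mean of the ES lines (adjusted p = 2.56e-08) and was not called, while the lines lay on both sides of it.

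**Figure D3:**
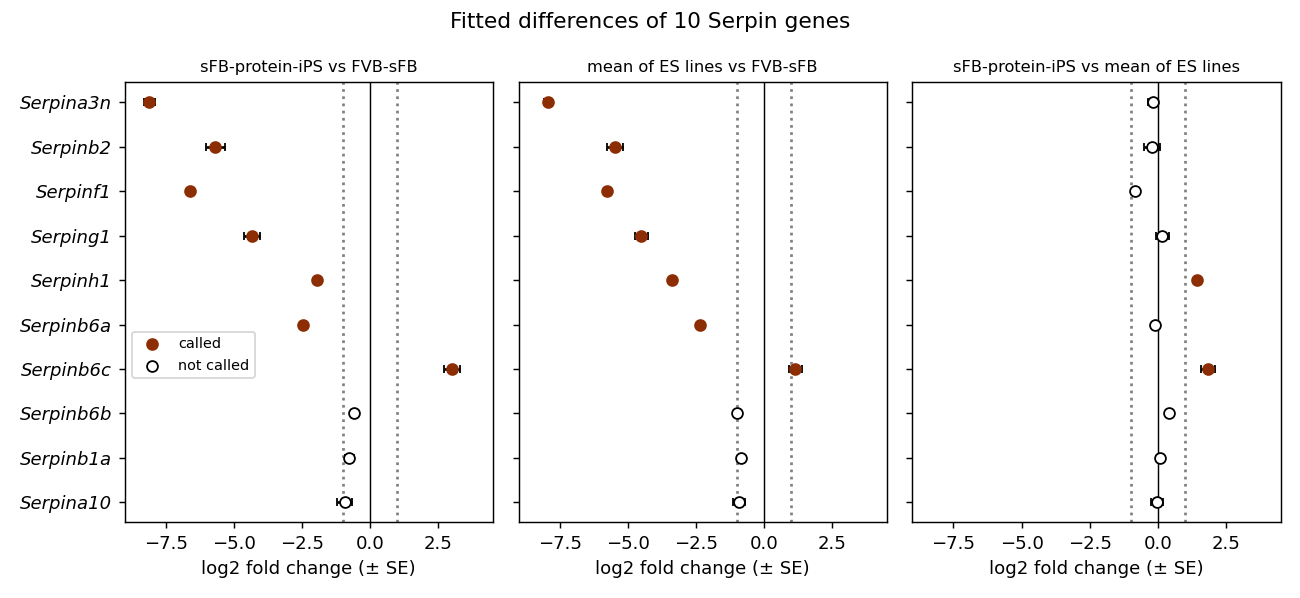
Fitted log2 fold changes with standard errors for 10 Serpin genes in 3 comparisons, filled where called, with dotted lines at a log2 fold change of 1 in either direction. The 2 comparisons with FVB-sFB share its arrays and show 6 genes below -1 and Serpinb6c above 1, and the third panel shows Serpinh1 and Serpinb6c above 1.

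Line by line, Serpinf1 changed direction. Compared with E14-mES, 3 members were called in sFB-protein-iPS, all higher (6.85% of all genes were called, 3.12% higher). Serpinf1 was at least 4.21-fold higher (2.12 ± 0.11, adjusted p = 6.58e-14), Serpinb6c 2.56-fold (1.36 ± 0.30, adjusted p = 0.00058) and Serpinh1 2.68-fold higher (1.42 ± 0.10, adjusted p = 2.65e-11). Compared with GFPoct4, 2 were called (6.15% of all genes). Serpinf1 was 9.27-fold lower (-3.21 ± 0.11, adjusted p = 3.1e-17) and Serpinb6c 3.47-fold higher (1.79 ± 0.30, adjusted p = 2.25e-05), while Serpinh1 lay 0.72 ± 0.10 higher and below the minimum. Compared with C57-mES, 3 were called (4.39% of all genes). Serpinf1 was 2.71-fold lower (-1.44 ± 0.11, adjusted p = 9.45e-11), Serpinb6c 5.14-fold higher (2.36 ± 0.30, adjusted p = 6e-07) and Serpinh1 4.54-fold higher (2.18 ± 0.10, adjusted p = 8.7e-15). The calls of Serpinb6c and Serpinh1 against E14-mES were lost under median centring (0.95 and 0.96) and in the authors' deposited log2 values (0.65 and 0.60, where the median of all genes lay at -0.41).

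The same genes separated the ES lines from each other. Between E14-mES and C57-mES 2 members were called (7.19% of all genes). Serpinf1 was at least 11.4-fold lower in E14-mES (-3.56 ± 0.11, adjusted p = 2.16e-18), and Serpinb6c 2.01-fold higher (1.01 ± 0.30, adjusted p = 0.00828), the latter at the very edge of the minimum and below it without E14-mES array 2 (0.99) or array 3 (0.98). Between GFPoct4 and C57-mES 2 were called, both higher in GFPoct4 (7.69% of all genes were called, 4.28% higher). They were Serpinf1 (1.77 ± 0.11, 3.42-fold, adjusted p = 1.23e-12) and Serpinh1 (1.46 ± 0.10, 2.76-fold, adjusted p = 1.2e-11). Between E14-mES and GFPoct4 Serpinf1 alone was called (1.9% of all genes were, 1.17% lower), at least 39.0-fold lower in E14-mES (-5.33 ± 0.11, adjusted p = 1.09e-21). Serpina3n and Serpinb2 were at background in all ES and iPS groups, and no call was made for Serpinb6a or Serping1 between them. The largest of those differences was that of Serping1 between E14-mES and GFPoct4, -0.82 ± 0.30 (adjusted p = 0.057). The fit shares 1 spread per gene over all groups, FVB-sFB included. Without FVB-sFB arrays 1 and 2 this difference was -0.82 ± 0.09 (adjusted p = 1.67e-07) and without arrays 3 and 4 it was -0.82 ± 0.09 (adjusted p = 1.76e-07), still below the minimum fold.

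Fibroblast markers moved with Serpinf1 in part of the groups. Of the 12 markers 6 were above background on all 4 arrays of GFPoct4, against 3 each in E14-mES, C57-mES and sFB-protein-iPS and 11 in FVB-sFB. The mean level of the list was 7.49 to 7.75 over the GFPoct4 arrays, 6.94 to 7.09 in C57-mES, 6.78 to 6.91 in sFB-protein-iPS, 6.66 to 6.83 in E14-mES and 10.5 to 10.9 in FVB-sFB. Dcn, the proteoglycan decorin, averaged 11.66 in GFPoct4, 8.68 in C57-mES, 6.61 in sFB-protein-iPS, 6.33 in E14-mES and 14.09 in FVB-sFB. It was named after its values were seen, and it was above background on 1 array of sFB-protein-iPS and on 0 of E14-mES, so these groups have no order. Other markers stood in another order than Serpinf1. Thy1 averaged 9.18 in E14-mES and 8.20 in sFB-protein-iPS, and Pdgfra 7.85 in sFB-protein-iPS and 6.71 in C57-mES. The collagen genes Col1a1 and Col3a1 and the proteoglycan gene Lum, which define fibroblasts as well, were above background on no GFPoct4 array, at means of 6.60, 6.14 and 6.31. For Serpinh1 the order was another, since sFB-protein-iPS lay above GFPoct4 in Serpinh1 and below it in the marker list. In bulk RNA, fewer cells of a type and less RNA per cell cannot be told apart, and the part of other cells in the Serpinf1 levels was not tested.

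**Figure D4:**
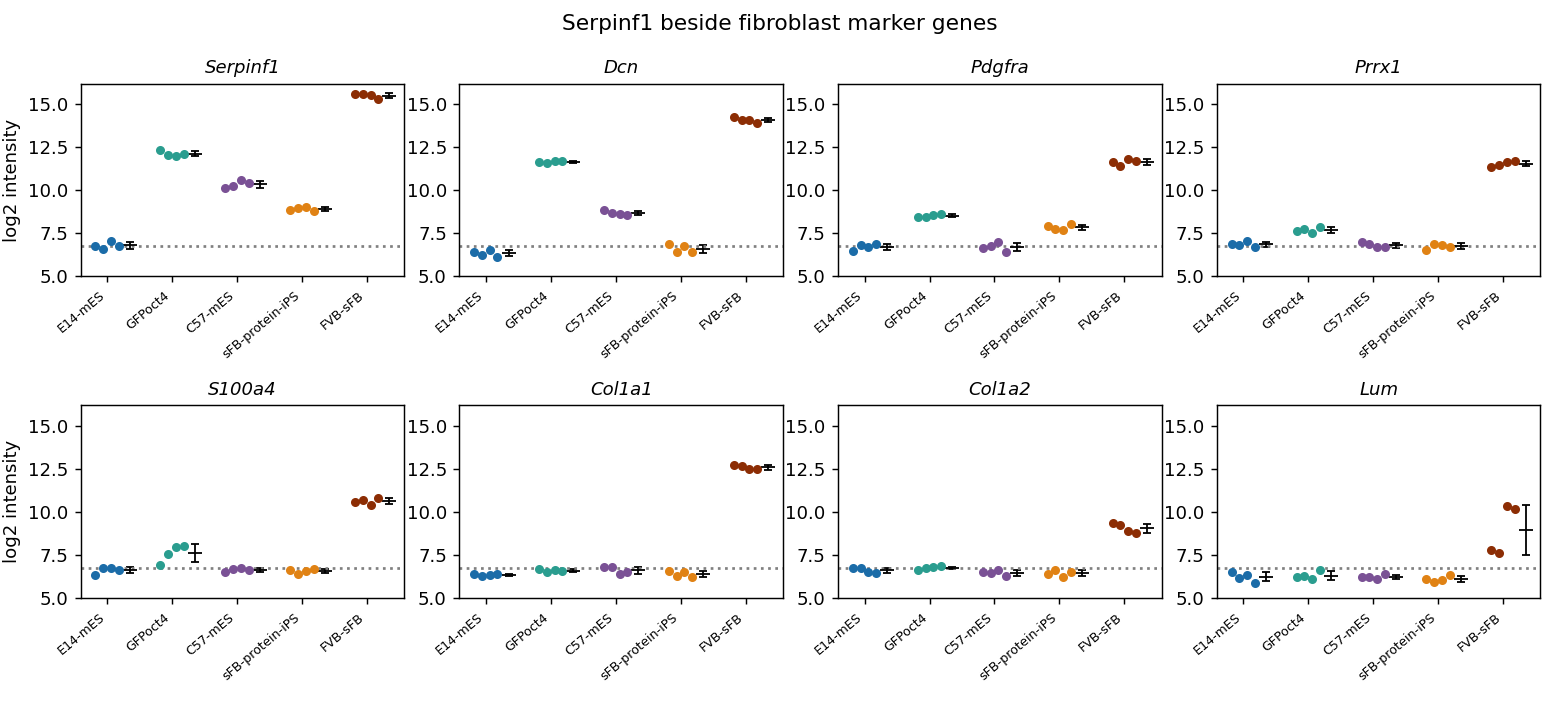
Log2 intensity of Serpinf1 and of 7 fibroblast marker genes by group, with each array as a point, the mean and SD of 4 arrays beside it, and the mean background level as a dotted line. Serpinf1 and Dcn step down from FVB-sFB through GFPoct4 and C57-mES, while Col1a1, Col1a2 and Lum lie near background in all groups but FVB-sFB.

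Markers of other cell types were read beside the genes that were high in FVB-sFB. Of 8 macrophage and leukocyte markers 4 were above background on all FVB-sFB arrays, among them Lyz1 at a mean of 12.66, Lyz2 at 11.07 and Cd14 at 8.85. The leukocyte markers Ptprc, Itgam and Adgre1 were above background on no FVB-sFB array. The mean of the list was 8.13 to 8.19 there and 6.33 to 6.54 in the other groups. Of 6 mast cell markers 1 was above background in each of the 5 groups. Serpina3n and Serpinb2 are also known from macrophages, and the part of such cells in their level was not tested.

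The partners of the serpins were counted from lists of proteases, receptors and other inhibitors. Of 27 serine proteases listed as targets or partners of serpins, 3 were higher and 3 lower in sFB-protein-iPS than in FVB-sFB (median 0.04, against 0.03 over all genes). Of all genes 11.6% were higher and 11.4% lower there. In the ES lines 4 were higher and 3 lower, where 11.6% of all genes were higher and 10.9% lower. Plau, the urokinase that Serpinb2 inhibits, was lower in both, by at least 11.2-fold and at least 7.68-fold. It averaged 10.31 in FVB-sFB, and in sFB-protein-iPS it was above background on no array. C1s1, a target of Serping1, was at least 2.24-fold and at least 2.37-fold lower. St14, the membrane protease matriptase, was at least 4.21-fold and at least 3.86-fold higher. No serine protease of the list was called between sFB-protein-iPS and the ES lines, where 3.26% of all genes were.

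Of 8 cysteine proteases 2 were higher and 5 lower in sFB-protein-iPS than in FVB-sFB (median -2.21, against 0.03 over all genes, of which 11.6% were higher and 11.4% lower). In the ES lines 1 was higher and 5 lower (median -2.09, against 0.01 over all genes, of which 11.6% were higher and 10.9% lower). Ctsk, a cathepsin that degrades collagen, was at least 67.3-fold lower in sFB-protein-iPS and Casp1 at least 17.5-fold, while Ctsc was at least 9.55-fold higher. Against the ES lines, where 1.47% of all genes were higher, 2 were higher, namely Ctsh (4.27-fold) and Ctsl (2.91-fold). A list made for plasminogen activation held 8 genes, among them also Thbd, Procr and Lrp1, the last counted again in the next list. Of these 8, 1 was higher and 3 lower in sFB-protein-iPS than in FVB-sFB (11.6% and 11.4% of all genes). In the ES lines 0 were higher and 3 lower (11.6% and 10.9% of all genes). Plaur, the urokinase receptor, was 2.2-fold higher in sFB-protein-iPS than in FVB-sFB, 3.57-fold lower in the ES lines than in FVB-sFB, and 7.85-fold higher in sFB-protein-iPS than in the ES lines. Serpinb2 stayed at background in sFB-protein-iPS beside that Plaur level. Of 6 measured genes listed for the clearing of serpin complexes, 1 was higher and 0 lower in sFB-protein-iPS than in FVB-sFB (11.6% and 11.4% of all genes). In the ES lines 1 was higher and 1 lower (11.6% and 10.9% of all genes). Sorl1 was at least 10.3-fold higher in sFB-protein-iPS and at least 7.9-fold higher in the ES lines than in FVB-sFB. Vldlr was 2.38-fold lower in the ES lines.

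Genes that modify and fold collagen alongside Serpinh1 were called lower or not at all against FVB-sFB. Of 21 measured, 12 were lower and 0 higher in sFB-protein-iPS than in FVB-sFB (median -1.11, against 0.03 over all genes, of which 11.4% were lower and 11.6% higher). In the ES lines 10 were lower and 0 higher (median -0.99, against 0.01 over all genes, of which 10.9% were lower and 11.6% higher). P3h3, a collagen prolyl hydroxylase, was at least 11.4-fold lower in sFB-protein-iPS, Plod3, a lysyl hydroxylase, 5-fold, and P4ha1 at least 4.63-fold. Against the ES lines, where 1.47% of all genes were higher and 1.79% lower, 2 were higher and 0 lower in sFB-protein-iPS, as Serpinh1 was. They were Kdelr3, a receptor that returns chaperones to the endoplasmic reticulum (1.25 ± 0.08, adjusted p = 5.57e-12), and P4ha2 (1.04 ± 0.07, adjusted p = 4.35e-12). Col1a1, a collagen chain that Serpinh1 serves, was above background on no sFB-protein-iPS array.

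Among 26 measured protease inhibitors that are no serpins, 5 were higher and 6 lower in sFB-protein-iPS than in FVB-sFB (22.9% of all genes were called), and 4 higher and 7 lower in the ES lines (22.6%). The median of the list was -0.04 in both comparisons. The metalloproteinase inhibitors Timp3 and Timp2 were 80.5-fold and 53.1-fold lower in sFB-protein-iPS, and Wfdc2 at least 56.7-fold higher. Against the ES lines, where 1.47% of all genes were higher, 2 were higher, Pi16 and Cst3. Of 9 measured genes that TGF-beta induces in mesenchyme, 6 were lower and 0 higher in sFB-protein-iPS than in FVB-sFB (median -2.12, where 11.4% of all genes were lower). In the ES lines 7 were lower and 0 higher (median -2.62, where 10.9% of all genes were lower). Against the ES lines, where 3.26% of all genes were called, 4 were higher, Id1, Ccn1, Ccn2 and Tagln, and 1 lower, Acta2.

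**Figure D5:**
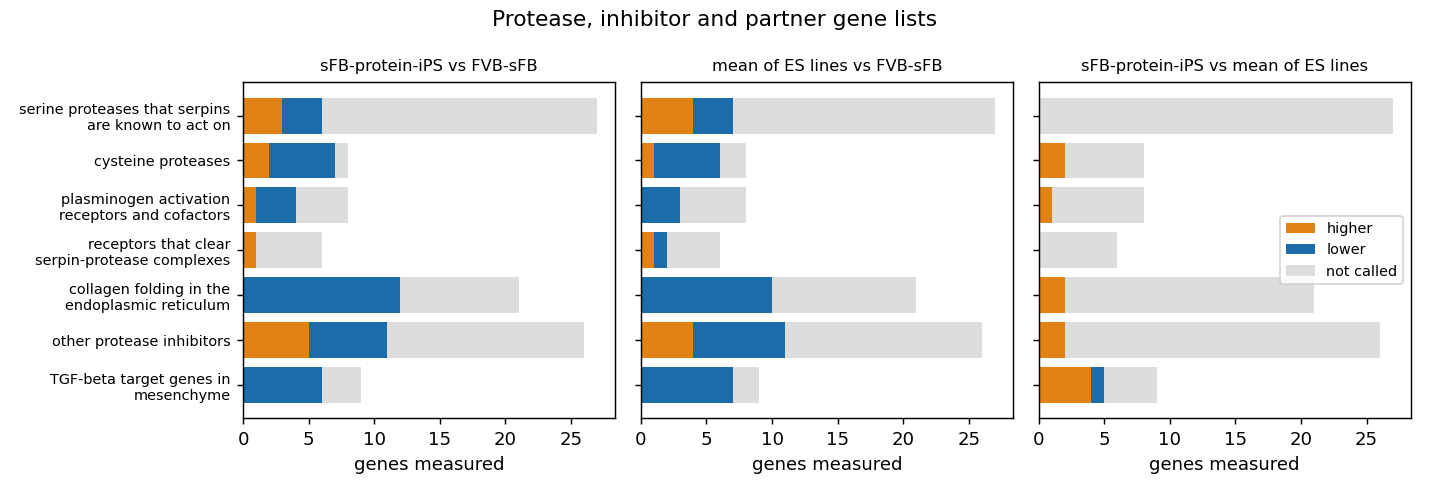
Number of measured genes called higher, called lower and not called in 7 lists of serpin partners, other inhibitors and related genes, in 3 comparisons. The collagen folding list has 12 and 10 genes lower and 0 higher in the comparisons with FVB-sFB, while the serine proteases show few calls in either direction.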

How the data were processed

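Gene expression was measured in 20 mouse samples on Illumina bead arrays from 500 ng of total RNA, biotin-labelled, per the labels' protocols. Per the submitters' processing notes BeadStudio was used to export the values (version not given in the sources used here). The deposited non-normalized table gives linear intensity. The deposited log2 values equal the log2 of that intensity to within 5e-09, so the authors had applied no normalization between arrays. For arrays, the number of arrays limits the precision. There were 25697 probes, 23978 with 1 gene symbol, 0 with several and 1719 with none, and 23962 gene identifiers were found in a RefSeq table (GRCm38.p6), used for names, chromosomes and neighbours.

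With R 4.3.3 and limma 3.58.1 the intensities were corrected with normexp (offset 50), taken to log2 and quantile normalized. The probe with the highest mean stood for each gene, which gave 16593 genes. A linear model with the 5 groups as means was fitted to all 20 arrays, and 9 contrasts were tested with eBayes, with p-values adjusted over all genes by Benjamini-Hochberg. Called genes had an adjusted p under 0.05 and a log2 fold change of at least 1 in size. The fit was tested on simulated data. Errors are the SE of the fit for differences and SD for group means.

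Replicate numbers were not treated as pairs. Same-numbered arrays of different groups gave 40 pairs, of which 5 had deviations that correlated above 0.1 (range -0.333 to 0.250). Alternatives were other background corrections and scalings, the authors' deposited log2 values, a filter on dim probes, the mean of all probes, a replicate block, no minimum fold, and arrays left out. Averaging the pairs of FVB-sFB arrays was added after seeing the data.

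The members, gene lists, markers and background probes were chosen with earlier results of these data known. The text gives values on every array for members called at a log2 fold change of at least 2 in size against FVB-sFB or called between ES and iPS groups, and up to 4 called genes of each list. Cstf1, which is no protease inhibitor, and the ambiguous synonym Ela2 were dropped from the lists. Keratinocyte, endothelium, liver and trophoblast markers were read as well, and of these 4 of 10, 2 of 7, 0 of 11 and 1 of 8 were above background on all FVB-sFB arrays.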

Additional observations from a re-analysis of the deposited data

Results flagged for a closer look

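In 50 sets of 4 arrays (10 Serpin genes in 5 groups) the highest or lowest array was compared with the rest of its group, and chance alone sets about 1 in 20 such sets apart. In GFPoct4, 1 array read 5.69 for Serpina3n where the other 3 read 6.26 to 6.30, all of them below background. In sFB-protein-iPS, 1 array read 6.88 for Serpinb6b where the other 3 read 6.63 to 6.65, below background.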

How the results depend on the processing

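Over 29 alternatives, 24 of the 29 called values of the named Serpin genes kept direction and call in each, and 0 of the 45 values followed reversed. With no minimum fold change the counts of called members rose to 14, 19, 10, 13, 8, 6, 6, 4 and 3 in the order of the comparisons above (from 7, 7, 2, 3, 2, 3, 2, 2 and 1). For sFB-protein-iPS against E14-mES 1 member in place of 3 was called under median centring and in the authors' deposited log2 values. Of all genes 1.12% were called higher and 9.07% lower there under median centring, and 0.542% higher and 16.9% lower in the deposited values. For E14-mES against C57-mES 1 in place of 2 was called with no background correction, where 1105 of all 16593 genes were called. The count was 1 to 2 when single arrays were left out, where Serpinb6c fell to between 0.98 and 1.00. In the authors' deposited log2 values the ES lines differed from FVB-sFB in 9 members, 0 higher and 9 lower, where 7.88% of all genes were called higher and 14.6% lower. Serpinb6c stood at 0.78, and the median of all genes at -0.15. There sFB-protein-iPS differed from FVB-sFB in 10 members, 1 higher and 9 lower, where 4.31% of all genes were called higher and 21.9% lower, with that median at -0.41. Serpinb6b, Serpinb1a and Serpina10 gained calls there. Without FVB-sFB array 3 or 4 Serpinb6c in the ES lines against FVB-sFB stood at 0.80 and 0.84. Serpinf1 was called in sFB-protein-iPS against the ES lines under median centring (-1.15) and in the deposited log2 values (-1.42). The cause of these shifts was not tested. The replicate block left the counts at 7, 7, 2, 3, 2, 3, 2, 2 and 1, and for 7 of 20 arrays the closest deviations were those of a same-numbered array. Averaging FVB-sFB arrays 1 with 2 and 3 with 4 changed no count. The filter on dim probes removed Serpina10, which has no value there. Of 49 members 24 were above background on no array, so a change in them was not detectable here.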
